A study of Rattus norvegicus with 6 samples.

Results

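The Hox genes of clusters A to D were examined in cells grown from pieces of rat aorta. The genes were taken by name, as every row of the count table whose symbol is Hoxa, Hoxb, Hoxc or Hoxd followed by a number, and this gave 37 of 16770 rows. They comprised 11 genes of cluster A, 9 of cluster B, 9 of cluster C and 8 of cluster D. RefSeq lists 39 such genes in the rat, and the remaining 2, Hoxb1 and Hoxd12, were not analysed here. The cells came from the proximal aorta next to the heart of 3-month-old rats of 2 inbred strains, the normotensive Wistar Kyoto (WKY) and the spontaneously hypertensive rat (SHR). The aortic pieces were laid with their inner surface on the plastic, and the cells that grew from them, which the labels call endothelial, were kept in a medium for endothelial cells that held serum and a growth supplement. No library received a further treatment. Each strain had 3 libraries, with replicates 1 and 2 of both strains in the labels' batch 1 and replicate 3 of both strains in batch 2, so that the batch 2 value of a strain rests on 1 library. The labels give n = 3 per strain without saying which library came from which animal or culture, so a p-value here sets a difference against the spread from library to library, which may be technical.

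Hox genes encode homeodomain transcription factors that lie in 4 clusters and are numbered by paralogue group from 1 to 13. Genes of low group number are switched on early and far forward in the embryo, and genes of high group number late and far back, so that the set of active groups marks a position along the body axis. Adult fibroblasts and smooth muscle cells keep much of this set in culture, held by Trithorax proteins at active genes and Polycomb proteins at silent genes, and retinoic acid is a classical inducer of the low groups. The wall of the proximal aorta takes cells from the cardiac neural crest and the second heart field, populations in which low-group Hox genes are active in the embryo.

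Total estimated counts per library lay between 18462051 and 19947278. Levels are given as CPM (counts scaled to a common library size), which is not divided by gene length, so a level is compared between libraries of the same gene and never between genes. A count of 0 allows up to 3 counts, which is 0.151 to 0.186 CPM in a library for counting error alone. Of the 15 endothelial markers 13 had a row, and their summed level lay between 25.7 and 102 CPM, mostly from Flt1 and Egfl7. Several defining endothelial genes were at or near 0: Cdh5 had at most 2 counts in any library, Tie1 and Sox18 at most 1, and Pecam1 lay between 0.106 and 2.18 CPM. Tek, also of that list, was at 0.435 to 1.85 CPM in WKY and 4.72 to 9.37 CPM in SHR (log2 fold change 3.00, adjusted p = 0.182 with edgeR and 0.000383 with DESeq2), and Sox17 lay between 0 and 3.01 CPM. Summed levels were 790 to 8690 CPM for 10 smooth muscle markers, 5480 to 21900 CPM for 11 fibroblast markers, 174 to 1470 CPM for 10 mesothelial markers and 28.8 to 67.7 CPM for 6 macrophage markers. In these bulk libraries fewer cells of a type and less RNA per cell cannot be told apart, and the part of the cell mixture in any Hox difference was not tested.

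WKY replicate 1 stood apart from the other 5 libraries in its Hox genes, so the sets of expressed genes and the counts of calls below are also given without it. A further limit concerns cluster A, in which 9 of the 11 genes had counts that were not whole numbers. The rows of Hoxa3, Hoxa4, Hoxa5, Hoxa9 and Hoxa10 each had 1 or 2 other rows with identical values, and the row of Hoxa2 had 1 other row that added to whole counts with it (tolerance 0.021). No such row was found for Hoxa6 and Hoxa7. Levels in cluster A are therefore uncertain, since reads appear to have been divided between near-identical copies of the gene, and each level printed for them is that of a single row. With the copies summed, a choice made after seeing the data, the levels of Hoxa3, Hoxa4 and Hoxa10 are 2 times and those of Hoxa5 and Hoxa9 3 times the printed ones, in every library alike. RefSeq also lists antisense transcripts beside several Hox genes, such as Hoxb5os beside Hoxb5, and the sources used here do not state whether counting used strand, so reads of a gene and its antisense partner cannot be told apart.

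At a level of at least 1 CPM, which is called expressed here, 17 Hox genes were expressed in WKY replicate 1, 13 in WKY replicate 2 and 14 in WKY replicate 3. The corresponding numbers were 14, 11 and 13 in SHR replicates 1, 2 and 3. A common core of 8 genes was expressed in all 6 libraries: Hoxa2, Hoxa3, Hoxa4, Hoxa5, Hoxb2, Hoxb3, Hoxb4 and Hoxd4. All of them belong to paralogue groups 2 to 5. A further 14 genes stayed below 1 CPM in every library, and of these Hoxa11, Hoxa13, Hoxb13, Hoxc12 and Hoxd11 had 0 counts in all 6 libraries. With the copies of cluster A summed, the numbers expressed were 19, 14 and 14 in WKY and 15, 12 and 13 in SHR, 9 genes were expressed in all 6 libraries and 13 in none. The 5 libraries other than WKY replicate 1 shared 10 expressed genes, the core with Hoxb6 and Hoxd3.

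**Figure D1:**
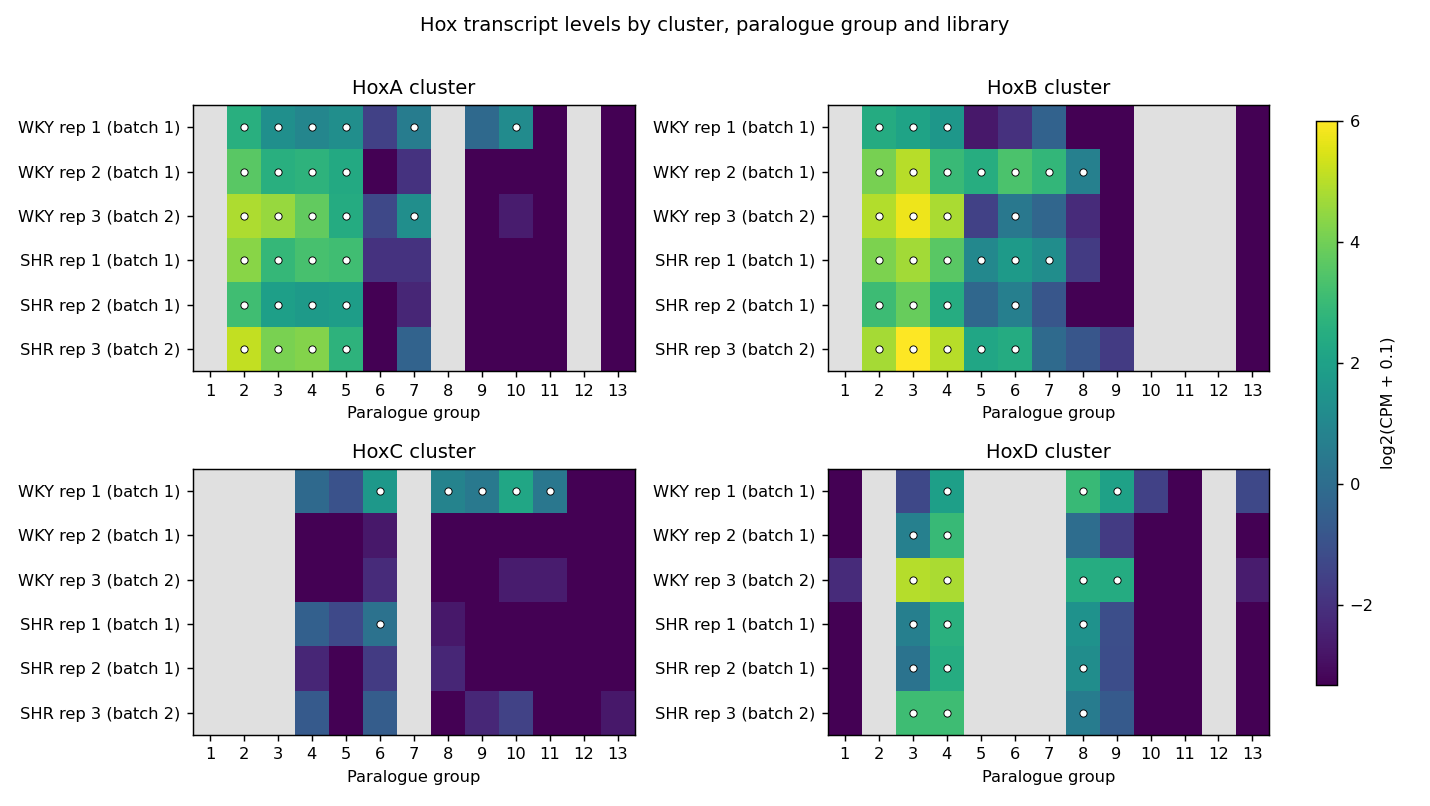
Levels of Hox genes, as log2(CPM + 0.1), in the 6 libraries (rows) by cluster (panels) and paralogue group (columns); white dots mark genes at or above 1 CPM and grey cells are not shown. Groups 2 to 4 of clusters A and B carry dots in every library, whereas groups 8 to 11 of cluster C carry them in WKY replicate 1 alone.

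Cluster by cluster, the expressed range of cluster A ended at Hoxa5 in WKY replicate 2 and in all 3 SHR libraries, at Hoxa7 in WKY replicate 3 and at Hoxa10 in WKY replicate 1. In cluster B the range began at group 2 in every library. It ended at Hoxb4 in WKY replicate 1, at Hoxb6 in WKY replicate 3 and SHR replicates 2 and 3, at Hoxb7 in SHR replicate 1 and at Hoxb8 in WKY replicate 2. In cluster D it ran from Hoxd3 to Hoxd8 in all 3 SHR libraries, from Hoxd3 to Hoxd4 in WKY replicate 2, from Hoxd3 to Hoxd9 in WKY replicate 3 and from Hoxd4 to Hoxd9 in WKY replicate 1. Cluster C was below 1 CPM throughout in WKY replicates 2 and 3 and in SHR replicates 2 and 3, and SHR replicate 1 had Hoxc6 alone at that level. WKY replicate 1 expressed 5 genes of cluster C, from Hoxc6 to Hoxc11.

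Hoxa2, the group 2 gene that patterns the second pharyngeal arch, was at 5.80, 12.2 and 29.1 CPM in WKY and at 20.1, 8.71 and 35.0 CPM in SHR. With its copies summed it was at 10.1, 17.8 and 76.8 CPM in WKY and at 29.5, 13.6 and 77.9 CPM in SHR. Its cluster B counterpart Hoxb2 was at 5.19, 16.7 and 30 CPM in WKY and at 17.9, 8.35 and 26.5 CPM in SHR. For both genes WKY replicate 1 was the lowest library, the batch 2 library of each strain was its highest, and the strains overlapped.

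Hoxa3, which is needed for the third pharyngeal arch and the vessels that form from it, was at 2.37, 5.81 and 23.8 CPM in WKY and at 7.34, 3.77 and 17.3 CPM in SHR. Hoxb3 was at 4.13, 31.8 and 53.8 CPM in WKY and at 25.8, 14.3 and 64.9 CPM in SHR. Hoxd3 was at 0.303, 1.58 and 31.2 CPM in WKY and at 1.52, 1.07 and 8.51 CPM in SHR. WKY replicate 1 was the lowest library for all 3 genes of group 3. In Hoxd3 the WKY library of batch 2 stood far above the SHR library of batch 2, whereas in Hoxb3 it stood below.

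Of group 4, which marks the caudal hindbrain and its neural crest, Hoxa4 was at 1.82, 6.44 and 13.4 CPM in WKY and at 9.54, 3.26 and 19.1 CPM in SHR. Hoxb4 was at 2.92, 7.87 and 28.3 CPM in WKY and at 12.2, 5.35 and 31.7 CPM in SHR. Hoxd4 was at 3.78, 7.76 and 28.1 CPM in WKY and at 5.98, 5.30 and 8.57 CPM in SHR. The lowest library was again WKY replicate 1 in each of them. For Hoxd4 the 3 SHR libraries and WKY replicate 2 lay close together, and WKY replicate 3 was the only library above 10 CPM. Hoxc4 stayed below 1 CPM, with a highest value of 0.807 CPM in WKY replicate 1.

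**Figure D2:**
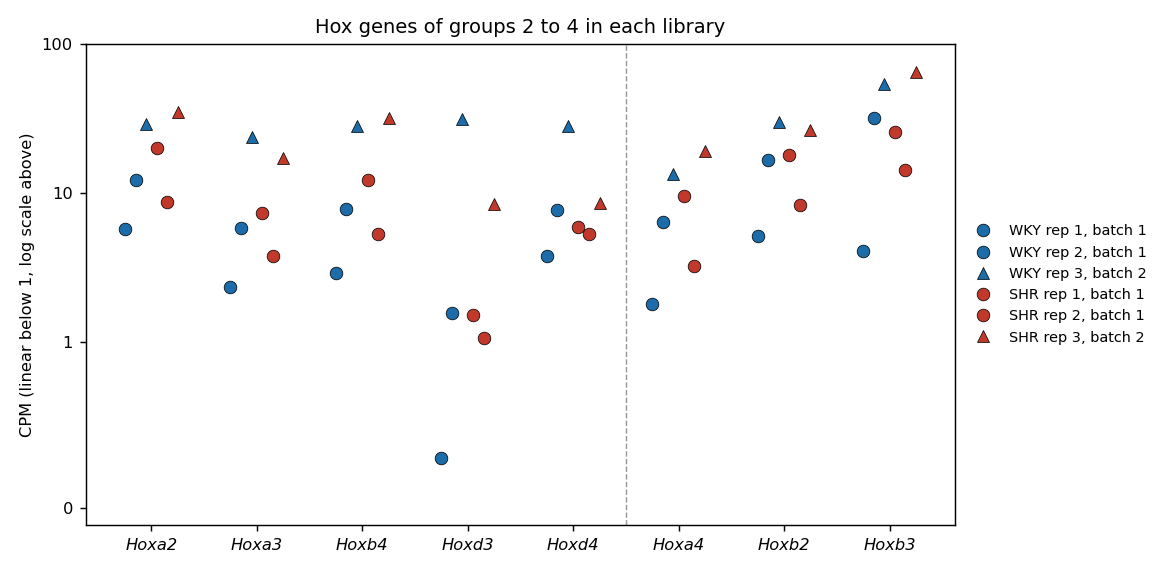
CPM of 8 Hox genes of groups 2 to 4 in each library (axis linear below 1 CPM and logarithmic above), with circles for batch 1, triangles for batch 2, blue for WKY and red for SHR; genes left of the dashed line passed the batch test. In each gene both triangles lie above all 4 circles, and in Hoxd3 and Hoxd4 the WKY triangle (31.2 and 28.1 CPM) lies well above the SHR triangle (8.51 and 8.57 CPM).

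Central genes were less uniform. Hoxa5, which is prominent in lung and cervical mesoderm, was at 2.32, 4.96 and 5.28 CPM in WKY and at 8.75, 3.51 and 6.39 CPM in SHR, and it was expressed in every library. Hoxb5 was at 0.0504, 5.49 and 0.248 CPM in WKY and at 1.94, 0.764 and 4.46 CPM in SHR. Hoxb6 was at 0.151, 10.2 and 1.24 CPM in WKY and at 3.30, 1.53 and 5.29 CPM in SHR. For Hoxb5 and Hoxb6 the 2 WKY libraries of batch 1 were the lowest and the highest of all 6, so the WKY libraries spanned all SHR libraries.

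Hoxb7 was at 0.655, 7.18 and 0.745 CPM in WKY and at 2.25, 0.458 and 0.831 CPM in SHR, and Hoxb8 reached 1 CPM only in WKY replicate 2, at 1.58 CPM. The genes Hoxb5 to Hoxb8 were thus all highest in WKY replicate 2. Hoxa7 was at 1.41, 0.158 and 2.36 CPM in WKY and at 0.157, 0.102 and 0.675 CPM in SHR. Here WKY replicate 2 was at the level of the SHR libraries of batch 1, and the other 2 WKY libraries were above every SHR library. Hoxa6 did not pass 0.310 CPM in any library.

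Hoxc6, a thoracic gene, was at 3.03, 0.0528 and 0.124 CPM in WKY and at 1.05, 0.204 and 0.571 CPM in SHR, so the lowest and the highest library were both WKY libraries of batch 1. Hoxd8 was at 7.71, 0.898 and 5.40 CPM in WKY and at 2.62, 2.29 and 1.40 CPM in SHR. Hoxd9 was at 3.93, 0.211 and 5.28 CPM in WKY and at 0.367, 0.356 and 0.519 CPM in SHR. Hoxd8 and Hoxd9 were both high in WKY replicates 1 and 3 and both low in WKY replicate 2. In the neighbouring Hoxd3 and Hoxd4, by contrast, WKY replicate 1 was the lowest library.

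The upstream windows of these 4 genes are shown because the genes lie side by side in cluster D and fall into 2 pairs with different library patterns. The pairs were formed after the values were seen, and WKY replicate 3 was the highest or second highest library for all 4 genes. The windows are the 250 bases before each gene's start in RefSeq on GRCr8, a later build than the Rnor_6.0 named for the counts, all on the plus strand of chromosome 3. The 4 windows lay at chr3:80045876-80046125 for Hoxd3, chr3:80021636-80021885 for Hoxd4, chr3:80014973-80015222 for Hoxd8 and chr3:80007756-80008005 for Hoxd9. Capitals mark a nuclear receptor half-site, AGGTCA, here on the minus strand.
Hoxd3: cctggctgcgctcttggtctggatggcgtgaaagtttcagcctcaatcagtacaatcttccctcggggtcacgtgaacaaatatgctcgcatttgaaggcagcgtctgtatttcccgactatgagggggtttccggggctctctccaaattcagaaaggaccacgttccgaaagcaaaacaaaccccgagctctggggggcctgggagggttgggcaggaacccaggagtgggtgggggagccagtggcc
Hoxd4: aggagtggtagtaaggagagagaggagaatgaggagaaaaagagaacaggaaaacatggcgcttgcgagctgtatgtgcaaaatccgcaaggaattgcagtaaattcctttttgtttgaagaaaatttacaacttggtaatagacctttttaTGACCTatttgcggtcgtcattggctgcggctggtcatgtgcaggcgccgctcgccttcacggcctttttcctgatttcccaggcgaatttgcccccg
Hoxd8: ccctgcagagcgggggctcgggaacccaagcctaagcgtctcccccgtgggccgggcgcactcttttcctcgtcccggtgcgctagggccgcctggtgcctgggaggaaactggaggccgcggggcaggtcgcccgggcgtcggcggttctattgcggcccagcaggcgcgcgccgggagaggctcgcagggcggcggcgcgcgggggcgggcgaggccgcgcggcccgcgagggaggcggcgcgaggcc
Hoxd9: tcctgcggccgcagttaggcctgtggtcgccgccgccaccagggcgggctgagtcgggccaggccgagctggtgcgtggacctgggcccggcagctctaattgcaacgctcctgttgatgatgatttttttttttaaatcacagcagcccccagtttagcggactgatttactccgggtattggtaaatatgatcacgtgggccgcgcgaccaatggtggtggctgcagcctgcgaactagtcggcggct
The windows of Hoxd3 and Hoxd4 held 11 and 12 CpG dinucleotides, and those of Hoxd8 and Hoxd9 held 38 and 20. Whether CpG counts go with the library patterns was not tested. Of all 33469 promoter windows of this length, 1.69% had at least as many CpG as Hoxd8 and 16.7% at least as many as Hoxd9, against 33.6% for Hoxd3 and 31.5% for Hoxd4. Promoter windows were found for 18 of the 37 Hox genes, and they had a median of 20 CpG (3 to 39), compared with a median of 5 over all windows.

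On both strands, 3 motifs were searched. AGGTCA was found in 3 of the 18 Hox windows and in 14.1% of all windows. The MEIS and PKNOX core TGACAG was found in 3 of 18 and in 15.8% of all windows. A composite of a PBX and a HOX half-site, TGATNNAT, was found in 2 of 18 and in 7.96% of all windows. These matches describe letters in a short window and no more.

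Genes of groups 9 to 13 mark the trunk, limbs and tail of the embryo, and they were read mainly in WKY replicate 1. Hoxa10, a gene of the lumbar and sacral axis, had 43 counts there (2.17 CPM) and 1 count in the other 5 libraries together. Hoxc10, of the same paralogue group, had 88 counts (4.44 CPM) against 6 in the other 5 libraries. Hoxc9 had 25 counts against 2, and Hoxc11 had 24 against 1. Hoxa9 had 16 counts against 0 after rounding (0.33 in WKY replicate 2 before it). Its level in WKY replicate 1 was 25-fold a floor of 3 counts set over the other 5 libraries together. That fold leaves out the counting error of the 16.

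Hoxd9 differed from these genes, since its counts were divided between WKY replicate 1, with 78, and the other 5 libraries, with 113, most of them in WKY replicate 3. Hoxd10 had 5 counts in WKY replicate 1 and 0 elsewhere, and Hoxd13 had 6 there and 1 elsewhere. Hoxb9 was seen only in SHR replicate 3, at 0.208 CPM, and Hoxc13 only there, at 0.0519 CPM. The 5 genes that reached 1 CPM in WKY replicate 1 alone were Hoxa10, Hoxc8, Hoxc9, Hoxc10 and Hoxc11, and they are named here after their values were seen. With copies summed Hoxa9 joined them, at 2.47 CPM. Hoxc8 was at 1.71 CPM in that library and at most at 0.102 CPM in any other. A single library carried these genes at or above 1 CPM, and they did not pass the filter on low counts, so the main fit did not test them. Without that filter edgeR tested 32 Hox genes and called 0 by strain, compared with 0.253% of all genes.

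As a share of all Hox counts, groups 9 to 13 made up 24.3% in WKY replicate 1 (Wilson 95% interval 21.9% to 26.8%), 0.174% in WKY replicate 2 (0.0676% to 0.446%) and 2.07% in WKY replicate 3 (1.69% to 2.54%). In SHR replicates 1 to 3 the share was 0.300% (0.146% to 0.619%), 0.598% (0.290% to 1.23%) and 0.482% (0.319% to 0.729%). These intervals cover counting error only, and the shares weight long genes more than short ones. The shares and the summed Hox level below use a single row for each cluster A gene. With copies summed, the share of cluster A would be larger and those of clusters B, C and D smaller, by an amount not computed here. Groups 1 to 3 made up 30.1% in WKY replicate 1 and 56.5% to 65.8% in the other 5 libraries.

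Cluster C showed the same division, with 21.7% of Hox counts in WKY replicate 1 (19.5% to 24.2%) and 0.0434% to 1.67% in the others. Cluster B made up 22.1% in that library (19.9% to 24.6%) and 42.9% to 66.5% in the others. Cluster D made up 27.5% in WKY replicate 1 and 26.3% in WKY replicate 3, compared with 8.02% to 15.1% in the remaining 4 libraries. The summed Hox level was 59.2, 122 and 267 CPM in WKY replicates 1 to 3 and 122, 59.6 and 237 CPM in SHR replicates 1 to 3. WKY replicate 1 and SHR replicate 2 thus had similar low sums, with sets of genes at or above 1 CPM that overlapped but differed in 10 genes.

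**Figure D3:**
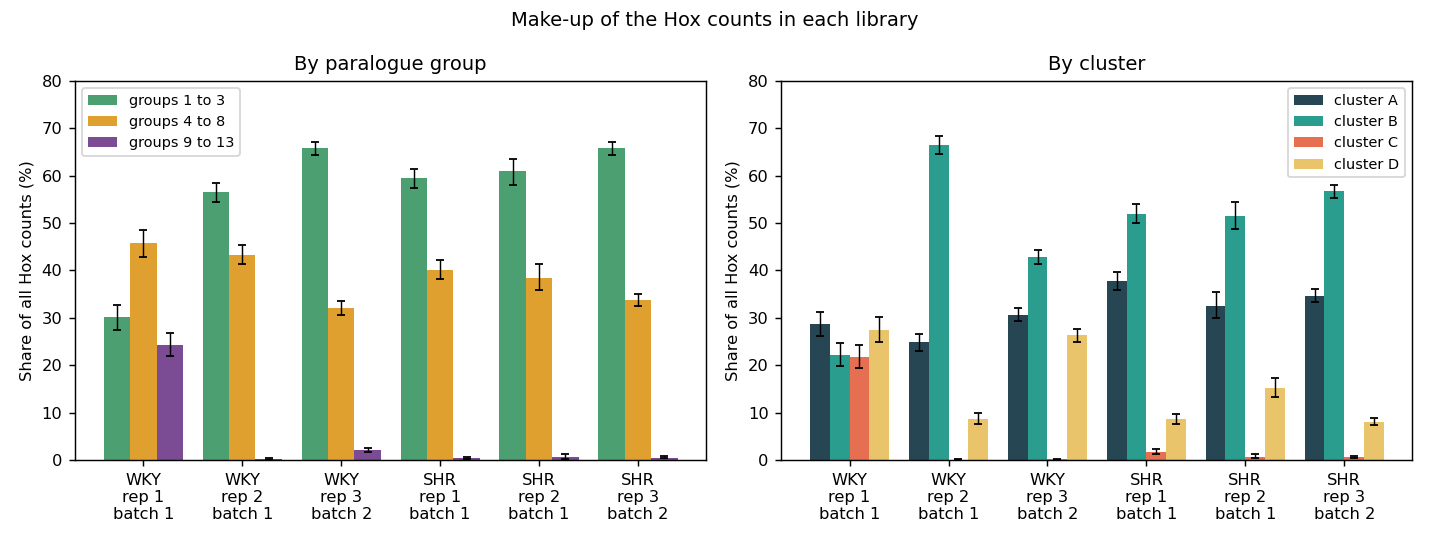
Share of all Hox counts (%) in each library by paralogue group (left) and by cluster (right), with Wilson 95% intervals that cover counting error only. Each cluster A gene is counted by a single row, without its copies. WKY replicate 1 has 24.3% in groups 9 to 13 and 21.7% in cluster C, both far above the other 5 libraries.

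The set of expressed genes was compared between libraries pair by pair. The 5 pairs that include WKY replicate 1 differed in 9 to 14 genes, and the 10 other pairs in 2 to 7. The largest of these numbers, 14, separated WKY replicates 1 and 2, which share strain and batch, whereas the 3 pairs of SHR libraries differed in 2 or 3 genes. The pairs were not compared over all genes, so whether WKY replicate 1 stands apart there as well was not tested. Among the 25 Hox genes with at least 10 counts in some library, WKY replicate 1 was the highest library for 9, WKY replicate 3 for 7, WKY replicate 2 and SHR replicate 3 for 4 each and SHR replicate 1 for 1. Of the 9, 6 reached 10 counts in WKY replicate 1 alone (Hoxa9, Hoxa10, Hoxc8, Hoxc9, Hoxc10 and Hoxc11). They entered the 25 only through that library, so this tally is no separate evidence that it stood apart.

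No expressed gene separated the strains completely. None was expressed in all SHR libraries and in no WKY library, or the reverse. All 3 SHR libraries shared 11 expressed genes, the core of 8 plus Hoxb6, Hoxd3 and Hoxd8, and all 3 WKY libraries shared the core of 8 alone. Across any library of the strain, WKY had 23 expressed genes and SHR 15, and the 15 were all among the 23. The 8 genes expressed in WKY alone were Hoxa7, Hoxa10, Hoxb8, Hoxc8, Hoxc9, Hoxc10, Hoxc11 and Hoxd9, each in 1 or 2 of the 3 libraries. Without WKY replicate 1, WKY had 17 expressed genes, of which Hoxa7, Hoxb8 and Hoxd9 were expressed in WKY alone, and Hoxc6 was expressed in SHR alone, in SHR replicate 1. These sets depend on the level chosen. At 0.5 CPM, with every library kept, 25 genes passed in some WKY library and 18 in some SHR library. Hoxa7 and Hoxd9 then passed in SHR too, and Hoxd8 passed in every library. All 3 WKY libraries shared 10 genes at that level, and all 3 SHR libraries 12. Such counts were not made over all genes.

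The test of strain asked whether any Hox gene differed between SHR and WKY with batch held constant. It could be made for the 16 genes that passed the filter on low counts, and the other 21 were not tested in this fit. Among the 16 were Hoxa2 to Hoxa5, Hoxa7, Hoxb2 to Hoxb7, Hoxc6, Hoxd3, Hoxd4 and Hoxd8. With edgeR's quasi-likelihood test and Benjamini-Hochberg adjustment over 12614 genes, 0 of 16 were called, where 0.254% of all genes tested were called. At an unadjusted p below 0.05, 1 of 16 passed, compared with 13.3% of all genes, and the DESeq2 Wald test called 0 Hox genes, compared with 5.14% of all genes. The libraries of the strains overlapped in all 16, whereas they did not overlap in 9.81% of all genes. The median log2 fold change of the 16 was -0.02, as over all genes, and 8 of 16 were positive.

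The gene with an unadjusted p below 0.05 was Hoxa7, whose fitted log2 fold change of SHR over WKY was -2.22 (SE 0.86, unadjusted p = 0.0431, adjusted p = 0.364). The mean level was 1.31 ± 1.10 CPM over the WKY libraries and 0.311 ± 0.316 CPM over the SHR libraries (SD, n = 3 each). None of the core genes was called. The log2 fold change was 0.54 for Hoxa2 (SE 0.42), 0.13 for Hoxa3 (SE 0.45), 0.59 for Hoxa4 (SE 0.60), 0.59 for Hoxa5 (SE 0.47), 0.11 for Hoxb2 (SE 0.52), 0.20 for Hoxb3 (SE 0.72), 0.51 for Hoxb4 (SE 0.48) and -0.59 for Hoxd4 (SE 0.46). Hoxb5 (SE 1.85), Hoxb6 (SE 1.51) and Hoxc6 (SE 1.51) had errors so wide that a several-fold difference in either direction would not have been detectable. Without WKY replicate 1 the strain comparison again called 0 Hox genes with edgeR and 0 with DESeq2. The strains then did not overlap in 1 of 16, Hoxc6, higher in SHR, compared with 14.1% of all genes.

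By edgeR's quasi-likelihood test 6 of the 16 tested rose in batch 2, among them Hoxa2, Hoxa3, Hoxb4, Hoxd3 and Hoxd4, and none fell. Of all genes tested 43.5% were called in either direction and 21% were called higher in batch 2. Of the Hox genes 7 of 16 passed at an unadjusted p below 0.05, compared with 53% of all genes. The median log2 fold change of the 16 was 1.51 against 0 over all genes, with 12 of 16 positive. The DESeq2 Wald test, which filters otherwise, called 8 of 24 Hox genes, adding Hoxa4 and Hoxb3, where it called 46.7% of all genes. The 4 batch 1 libraries and the 2 batch 2 libraries did not overlap for 9 of 16, all higher in batch 2 (the 6 called genes with Hoxa4, Hoxb2 and Hoxb3), compared with 57.6% of all genes in either direction and 27.2% higher. Without WKY replicate 1 the batches did not overlap in 10 of 16, Hoxa7 being added, compared with 62.6% of all genes. DESeq2 then called 9 of 19, among them Hoxa7, compared with 39.1% of all genes.

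Among the called genes Hoxd3 had a fitted log2 fold change of 4.0 for batch 2 over batch 1 (SE 0.78, edgeR adjusted p = 0.0128), or 16.0-fold. Hoxb4 followed at 2.13 (SE 0.49, adjusted p = 0.0198) and Hoxa3 at 2.11 (SE 0.46, adjusted p = 0.0159). Hoxd4 changed by 1.53 (SE 0.47, adjusted p = 0.0462) and Hoxa2 by 1.49 (SE 0.43, adjusted p = 0.0389). With its copies summed, the change of Hoxa2 was 2.16 (adjusted p = 0.00912). In groups 5 to 8, the fitted values were 1.89 for Hoxa7 (SE 0.83, adjusted p = 0.117), 0.30 for Hoxa5 (SE 0.49), -0.15 for Hoxb6 (SE 1.61), -1.49 for Hoxb7 (SE 1.23) and -0.19 for Hoxd8 (SE 0.84), none of them called. Hoxa7 was called without WKY replicate 1, at 2.99 (adjusted p = 0.0273).

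The number of batch calls depended on single libraries. It was 0 without WKY replicate 3, the only WKY library of batch 2, although 30.9% of all genes were still called. It was 1 (Hoxd3) without SHR replicate 2, 3 (Hoxa3, Hoxd3 and Hoxd4) without SHR replicate 3 and 4 (Hoxa2, Hoxa3, Hoxb4 and Hoxd3) without SHR replicate 1. Without WKY replicate 2 it was 5. Without WKY replicate 1 it was again 6, among them Hoxa3, Hoxa7, Hoxb3, Hoxb4 and Hoxd3, whereas Hoxa2 and Hoxd4 were no longer called. Hoxd3 was called in 5 of the 6 fits that left out a library, and the log2 fold changes of Hoxa2, Hoxa3, Hoxb4, Hoxd3 and Hoxd4 stayed positive in all 6 fits. That of Hoxd3 ran from 2.70, with WKY replicate 3 left out, to 5.05, with SHR replicate 3 left out, and that of Hoxd4 from 0.59 to 2.28 over the same 2 fits. The batches also differed in cell markers, with 7 of 9 tested smooth muscle markers called higher in batch 2, where 21% of all genes were, and Myh11 at 344 and 49.2 CPM in batch 2 against 2.57 to 6.39 CPM in batch 1. The part of those cells in the Hox difference was not tested.

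**Figure D4:**
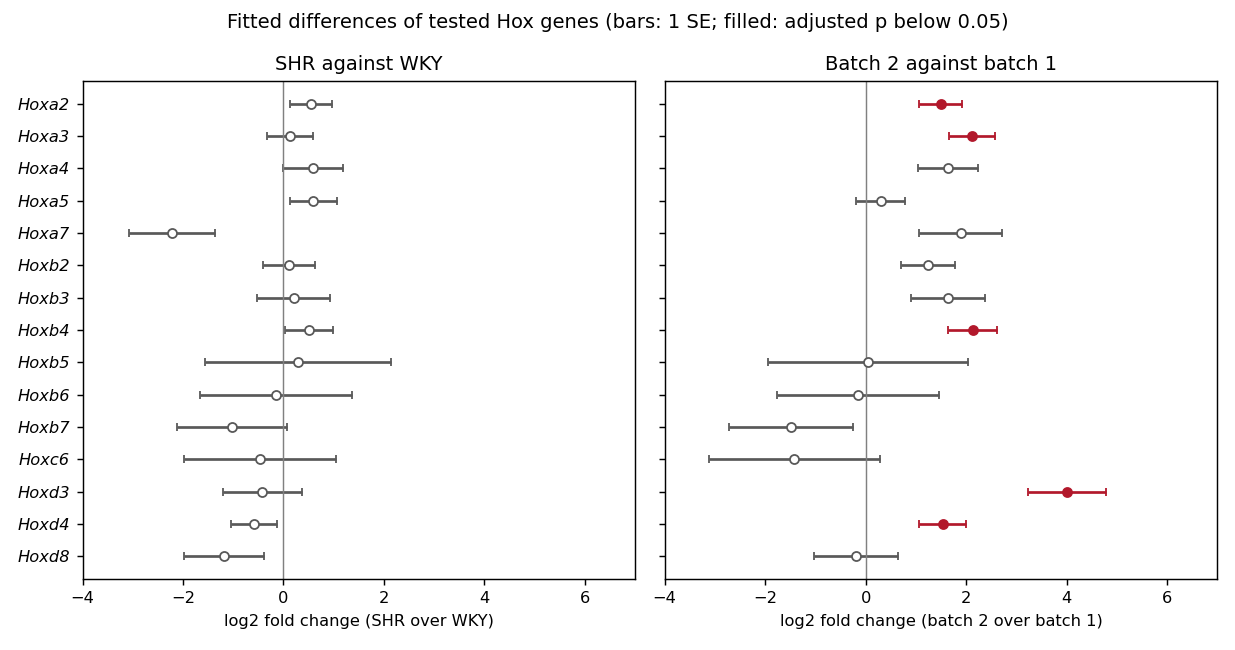
Fitted log2 fold change of 15 tested Hox genes for SHR over WKY (left) and batch 2 over batch 1 (right), with bars of 1 SE and filled red points for adjusted p below 0.05. No point is filled on the left, and the 5 filled points on the right lie between 1.49 (Hoxa2) and 4.0 (Hoxd3).

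Whether the strain difference itself depended on batch was asked with an interaction term. It called 0 of 16 Hox genes with edgeR, compared with 0% of all genes, and 0 also passed at an unadjusted p below 0.05, compared with 12.7% of all genes. The DESeq2 Wald test called 0 Hox genes, compared with 3.48% of all genes. Hoxd4 had the smallest p, with an interaction of -1.68 on the log2 scale (SE 0.67, unadjusted p = 0.0532, edgeR adjusted p = 0.396), and Hoxd3 was at -2.34 (SE 1.22, adjusted p = 0.502). The wide gap between the WKY and SHR libraries of batch 2 in these genes therefore did not pass the test, which has 2 residual degrees of freedom. Without WKY replicate 1, with 1 residual degree of freedom, edgeR again called 0 of 16, compared with 1.49% of all genes, and DESeq2 called Hoxb5, compared with 2.67%. Hoxb5 was then at 6.14 by edgeR (adjusted p = 0.0707). In the log2 values the authors deposited, the batch means of each Hox gene were equal (largest difference 5e-10), so the batch difference described here is not present in them.

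Partners and regulators of the Hox proteins were read from the same fit. The TALE homeodomain proteins of the Pbx, Meis and Pknox families bind DNA together with Hox proteins, and all 9 were tested. None was called by strain and 6 were called higher in batch 2, among them Pbx2, Pbx3, Meis1, Meis2 and Pknox2, and none lower. Over all genes 0.254% were called by strain, and 21% were called higher and 22.5% lower by batch. The count of 6 fell to 2 without SHR replicate 3, and Meis1 (0.45, adjusted p = 0.0498) was called in none of the 6 fits that left out a library. Pknox2 was at 0.555, 1.00 and 27.4 CPM in WKY and at 3.36, 3.87 and 24.3 CPM in SHR, a log2 fold change by batch of 4.01 (SE 0.58, adjusted p = 0.005), which was 2.74 with WKY replicate 3 left out and 5.13 with SHR replicate 3 left out. Meis2 was at 46.9, 51.4 and 105 CPM in WKY and at 35.8, 40.8 and 87.5 CPM in SHR, a change of 1.14 (SE 0.13, adjusted p = 0.00234). Pbx2 changed by 0.68 (SE 0.14, adjusted p = 0.0115) and was not called without SHR replicate 3 (adjusted p = 0.063). Pknox1 did not pass either test, at -0.34 by batch (SE 0.17, adjusted p = 0.152) and 0.35 by strain (adjusted p = 0.412).

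Of the Polycomb group, which holds Hox genes silent, 25 of 26 were tested, 0 were called by strain, and 10 were called higher and 7 lower in batch 2, where 21% and 22.5% of all genes were. Without WKY replicate 3 the higher count was 6. Phf19, an accessory subunit of the complex that methylates histone H3 at lysine 27, was at 27.9, 29.2 and 6.09 CPM in WKY and at 37.2, 40.7 and 9.14 CPM in SHR, and fell by 2.16 on the log2 scale (adjusted p = 0.00105). Pcgf2, a subunit of Polycomb repressive complex 1, rose by 2.05 (adjusted p = 0.00105). Phc1 rose by 1.35 (adjusted p = 0.00123), and Cbx7 had a strain difference of 1.54 that was not called by edgeR (adjusted p = 0.332). DESeq2 called 1 of 26 Polycomb genes by strain, as higher in SHR, compared with 5.14% of all genes in either direction.

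Of the Trithorax group with the demethylases that remove that mark, all 12 were tested, 0 were called by strain, and 7 were called higher and 5 lower in batch 2, against 21% and 22.5% of all genes. Kdm6b, such a demethylase, was at 11.8, 11.4 and 77.5 CPM in WKY and at 13.8, 10.6 and 81.0 CPM in SHR, a rise of 2.73 (adjusted p = 0.000884). The methyltransferase genes Kmt2a and Kmt2b rose by 1.13 and 1.11. The 5 lower genes were Psip1, Wdr5, Ash2l, Rbbp5 and Dpy30, and their count was 2 without SHR replicate 3 and 3 without any 1 WKY library. Kmt2d had a strain difference of -0.54 that was not called (adjusted p = 0.317), and those of Psip1, 0.34, and Rbbp5, -0.31, were not called either.

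For the retinoic acid pathway 17 genes had a row and 11 were tested, with 0 called by strain. The receptor genes Rara, Rarg, Rxra and Rxrb were called higher in batch 2, and Cyp26b1, which degrades retinoic acid, was called lower, so 4 and 1 of 11 against 21% and 22.5% of all genes. Without WKY replicate 3, Rarg (adjusted p = 0.0691) and Cyp26b1 (adjusted p = 0.0538) were not called. Without SHR replicate 3, Rxra was called at 0.92 in place of 1.53. Rara was at 32.4, 40.9 and 145 CPM in WKY and at 36.6, 33.3 and 120 CPM in SHR, a rise of 1.88 (adjusted p = 0.00117). Cyp26b1 was at 10.9, 7.66 and 1.99 CPM in WKY and at 5.24, 8.66 and 2.08 CPM in SHR, and it fell by 1.97 on the log2 scale (adjusted p = 0.00894), a gene named with Rarg after their values were seen. Aldh1a2, the main embryonic enzyme of retinoic acid synthesis, was at 0, 1.32 and 0.124 CPM in WKY and at 3.72, 3.97 and 10.6 CPM in SHR. The strains did not overlap in Aldh1a2 and Crabp2, 2 of 11 compared with 9.81% of all genes. Of these, Aldh1a2 was higher and Crabp2 lower in SHR. The strain difference of Aldh1a2, 3.50, was not called by edgeR (adjusted p = 0.382), nor was that of Crabp2 (-1.58, adjusted p = 0.362) or Rarb (0.44, adjusted p = 0.495). Without WKY replicate 2, edgeR called 1 of 11 genes of this list higher by strain, compared with 0.502% of all genes.

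Of 13 upstream regulators and sister genes of the Hox clusters 6 had a row and 3 were tested. Egr2, a hindbrain activator of group 2 genes, was called higher in batch 2 by 1.92 (adjusted p = 0.00657), and Gdf11 (-0.04) was not called. Of 24 transcription factors of the heart and the cardiac or cranial neural crest 19 were tested. Tcf21, a factor of epicardial and fibroblast cells, was called by strain and is also on the fibroblast list. It was at 0, 0.0528 and 0.124 CPM in WKY and at 1.21, 1.17 and 23.9 CPM in SHR, a log2 fold change of 6.67 (adjusted p = 0.0373). This call was lost when any library but WKY replicate 2 was left out (adjusted p = 0.0974 to 0.219) and with the replicate block (adjusted p = 0.132). The call of Tcf21 by strain was also lost without a batch term and in batch 1 alone. On the fibroblast list 11 of 11 log2 fold changes by strain were above 0, 8 of 11 genes had no overlap between the strains (9.81% of all genes), and edgeR called 1 and DESeq2 7 (0.254% and 5.14% of all genes). Its part in the Hox values was not tested. In batch 2, Tcf21, Hand2, Gata6, Isl1, Tbx18 and Six2 were called higher and none lower, 6 of 19 against 21% of all genes called higher. The absence of lower calls in this list depended on SHR replicate 3. Isl1 was not called without WKY replicate 2 or 3 or SHR replicate 1 or 3, and Tcf21 was not called by batch without SHR replicate 3. Six2 had a batch change of 3.23, which ranged from 1.82, with WKY replicate 3 left out, to 4.41, with SHR replicate 3 left out. Hand2 rose by 2.67 (adjusted p = 0.00144), Gata6 by 1.63 (adjusted p = 0.00202) and Tbx18 by 2.71 (adjusted p = 0.00318). Dlx5 (4.98, adjusted p = 0.284) and Tbx20 (3.09, adjusted p = 0.369) had strain differences that edgeR did not call. DESeq2 called 2 of the 24 heart and neural crest factors higher in SHR, compared with 5.14% of all genes in either direction.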

How the data were processed

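RNA sequencing was done on 6 libraries, 3 of each strain. The authors deposited estimated counts per gene, not normalized, of which 8.96% were not whole (tolerance 0.001). The submitters' processing notes name, without roles, the build Rnor_6.0 and the tools RSEM 1.2.28, Bowtie2 2.4.4 and DESeq2 1.42.1. The authors also deposited log2 values, in which the batch means of each Hox gene are equal, and other genes were not checked. The sources used here do not state how these were made, and they entered no test.

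Estimated counts were rounded, filtered with filterByExpr by strain (12614 of 16770 genes kept) and scaled by TMM (factors 0.872 to 1.07). Levels are CPM. Strain and batch were terms of 1 fit (3 residual degrees of freedom), tested two-sided in edgeR 4.0.16 (R 4.3.3) by quasi-likelihood F-test, adjusted by Benjamini-Hochberg over all genes and called at an adjusted p below 0.05. DESeq2 1.42.0 was an alternative. The code was tested on simulated data. Same-numbered libraries of the strains deviated together from their strain means (correlations 0.365, 0.462 and 0.697). By the rule used here, each over 0.1, the numbers were taken as pairs in the replicate block, an alternative, and not in the main fit. Every WKY and SHR library of the same batch correlated above 0.1, so this rule cannot tell pairing from a shared batch. Libraries of other numbers within batch 1 correlated more highly (0.554 and 0.549) than the same-numbered pairs of that batch, and the labels tie the numbers only to the batch.

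The Hox genes, other lists and markers were chosen with earlier results of these data known. The Hox genes named with their values had a mean of 1 CPM or more, were called, were at an unadjusted strain p below 0.05, or stood at the end of an expressed range, and of each other list the 3 genes with the smallest adjusted p in each comparison. Some genes these rules select are not reported here, though counts and sums include them. Of the 37 identifiers 36 matched RefSeq, which supplied the promoter windows. Total counts lay between 18462051 and 19947278. Alternatives were other scalings, filters, thresholds and terms, the replicate block, batch 1 alone, each library left out and copies summed.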

Additional observations from a re-analysis of the deposited data

How the results depend on the processing

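The count of Hox genes called by strain was 0 under each alternative run, with adjusted p between 0.13 and 1.0, and the replicate block, which pairs same-numbered libraries, also called 0 Hox genes. It called 6 of 12614 genes in place of 32, and of the calls reported it ended that of Tcf21 (adjusted p = 0.132). Strain estimates that changed sign, none of them called, were Hoxa3 without a batch term (-0.17), Hoxb5 (-1.03) and Hoxd3 (0.46) in batch 1 alone, and Hoxb6 (1.30) and Hoxc6 (0.33) with the replicate block. With each library left out in turn, strain estimates ranged from -0.25 to 0.44 for Hoxa3, -0.28 to 0.64 for Hoxb2, -0.27 to 1.33 for Hoxb3, -1.03 to 4.30 for Hoxb5, -1.10 to 2.93 for Hoxb6, -1.60 to 0.66 for Hoxb7, -1.29 to 2.75 for Hoxc6 and -1.08 to 0.46 for Hoxd3. Batch estimates ranged from -3.44 to 1.80 for Hoxb5, -2.06 to 1.75 for Hoxb6, -3.57 to 0.14 for Hoxc6 and -0.82 to 0.70 for Hoxd8. Interaction estimates that changed sign without WKY replicate 1, chosen after seeing the data and none called, were Hoxa2 (0.02), Hoxa4 (0.51), Hoxa7 (-1.52), Hoxb2 (0.16) and Hoxc6 (-1.27). The count called by batch ranged from 0 to 6 with a library left out, the cause of which was not tested, and was 6 to 8 under the other alternatives. At 5 CPM the expressed genes numbered 3 in WKY replicate 1, 8 in SHR replicate 1 and 5 in SHR replicate 2, and 2 (Hoxa2 and Hoxb2) in all 6 libraries. The genes expressed in WKY replicate 1 alone numbered 5 at 1 CPM, 6 at 0.5 CPM and 0 at 5 CPM. Depth limits genes near the floor of 3 counts.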
